A study of Mus musculus with 16 samples.

Results

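The 8 genes described here carry the synthesis and recycling of glutathione in the mouse retinal pigment epithelium (RPE), the pigmented cell sheet behind the photoreceptors. They were chosen by name and role: Slc7a11 and Slc3a2 for cystine uptake, Gclc, Gclm and Gss for synthesis, Gsr and Glrx for reduction, and Glo1 for the glyoxalase step. All 8 were found among the 51912 genes of the deposited count table, and all 8 were among the 15380 genes that averaged 1 CPM or more (count per library scaled to 1e6) and were tested. RNA had been sequenced from 16 libraries, each from the RPE of 1 eye of a 40-week-old male C57BL/6 mouse, to ask how hydroquinone, a quinol used as an oxidant, and the succinate receptor gene Sucnr1 act on this tissue. Untreated wild type had 4 libraries from 2 mice, and wild type with hydroquinone had 4 libraries from 4 mice. Untreated Sucnr1 knockout had 4 libraries from 3 mice, and knockout with hydroquinone had 4 libraries from 4 mice. The labels' protocol gives 4 animals per group instead, and the titles, which number the animals, were followed. The knockout allele and the dose, route and duration of hydroquinone are not given in the sources used here.

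Glutathione is a tripeptide of glutamate, cysteine and glycine, and it is the main small thiol antioxidant of animal cells. Cysteine is usually the scarce part, and the cystine/glutamate antiporter brings it into the cell as cystine. The antiporter pairs SLC7A11, the transporting light chain, with SLC3A2, a heavy chain that other amino acid transporters also use. Glutamate-cysteine ligase then joins glutamate and cysteine in the rate-limiting step, with GCLC as the catalytic and GCLM as the modifier subunit, and glutathione synthetase (GSS) adds glycine. Glutathione reductase (GSR) returns oxidised glutathione to its thiol form with NADPH, glutaredoxin (GLRX) removes glutathione from protein thiols, and glyoxalase 1 (GLO1) uses it to clear methylglyoxal. The RPE lives under light and high oxygen, and the transcription factors NRF2 and ATF4 are known to drive several of these genes in stressed cells.

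The genes lie on 7 chromosomes of the GRCm38 build. Slc7a11 (ENSMUSG00000027737) spans chromosome 3, 49892526 to 50443614, on the minus strand. Gclm (ENSMUSG00000028124) lies on the same chromosome at 122245557 to 122270732 on the plus strand. Gclc (ENSMUSG00000032350) spans chromosome 9, 77754535 to 77794485, on the plus strand, with 16 exons in its longest coding transcript. Gsr (ENSMUSG00000031584) lies on chromosome 8, 33652523 to 33698163, on the plus strand. Slc3a2 (ENSMUSG00000010095) lies on chromosome 19, 8706882 to 8723369, on the minus strand. Gss (ENSMUSG00000027610) lies on chromosome 2, 155563181 to 155592810, on the minus strand. Glrx (ENSMUSG00000021591) lies on chromosome 13, 75839868 to 75850154, on the plus strand. Glo1 (ENSMUSG00000024026) lies on chromosome 17, 30584936 to 30626871, on the minus strand. Whether the counting used strand is not given in the sources used here, so reads of overlapping gene models may be shared. Such models overlap exons of Gclm (Gm17494 by 296 bases and Gm6061 by 244), Gss (Gssos1 by 249, Acss2 by 163 and Gssos2 by 152) and Glo1 (AC165962.3 by 418, AC165962.4 by 131 and 1700097N02Rik by 90), and no other member has an exon overlap.

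Promoters are shown for the cystine carrier Slc7a11 and for Gclm, the ligase subunit set against Gclc below, because they are the members whose windows held a stress response motif of NRF2 or ATF4. The RefSeq promoter table (GRCm38.p6) held 6 of the 8 members, all but Gclc and Gsr. Each sequence is the 250 bases before the start site, 5′ to 3′ on the strand of the gene, from chr3:50443614-50443863 (minus) and chr3:122245307-122245556 (plus). Capitals mark matches, on either strand, to the core of the antioxidant response element bound by NRF2 (TGACNNNGC) or to the amino acid response element bound by ATF4 with a C/EBP partner (TGATGCAA):
Slc7a11: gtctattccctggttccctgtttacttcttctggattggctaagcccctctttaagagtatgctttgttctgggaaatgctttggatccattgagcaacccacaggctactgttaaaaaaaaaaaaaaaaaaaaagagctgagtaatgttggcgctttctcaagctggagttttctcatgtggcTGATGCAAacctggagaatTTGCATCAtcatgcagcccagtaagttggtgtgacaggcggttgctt
Gclm: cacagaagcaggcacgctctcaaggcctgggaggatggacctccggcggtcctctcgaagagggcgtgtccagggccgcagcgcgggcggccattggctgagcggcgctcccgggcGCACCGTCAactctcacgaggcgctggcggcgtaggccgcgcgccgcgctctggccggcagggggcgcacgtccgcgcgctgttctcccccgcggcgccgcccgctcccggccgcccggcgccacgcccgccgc
The Slc7a11 window held TGATGCAA in both orientations, at -66 on the strand of the gene and at -47 on the opposite strand, counted in bases from the start site. This motif was in 0.791% of 32851 promoter windows of the same length, and in no other member's window. The Gclm window held TGACNNNGC at -134 on the opposite strand, a motif found in 10.2% of the windows. Glrx was the member with the AP-1 motif TGANTCA, which was in 6.75% of the windows and can overlap TGACNNNGC, though no member's window held both. A match is a run of letters and not a measured binding site.

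Library totals ran from 21113549 to 35332444 counts, with 17904 to 24477 genes detected. All 12 RPE markers had counts in every group, with a summed level of 23633 to 38007 CPM. Other tissue was also present. The 14 rod photoreceptor markers summed to 256.2 to 24393 CPM, the 7 corneal and surface epithelium markers to 2697 to 25757 CPM, the 7 oligodendrocyte markers to 145.8 to 10242 CPM, and the 7 macrophage and microglia markers to 1038 to 3519 CPM. The 7 Mueller glia markers, all with counts in every group, summed to 3469 to 4405 CPM in untreated wild type and to 2851 to 3569 CPM in wild type with hydroquinone. In knockout they summed to 3452 to 4905 CPM without and 3868 to 4276 CPM with hydroquinone. The 7 lens markers summed to 4.18 to 187.1 CPM. Of these, 6 had counts in every group, and Lim2 was at 0 in all 4 groups. The Sucnr1 transcript gave 28 counts over the 4 untreated wild-type libraries, 1 of which had none. It gave 3 counts over the 4 untreated knockouts, 3 of which had none. It gave 1 count over each hydroquinone group, so it could not check the genotype labels of the treated libraries. Nor could it check each untreated library, since libraries with none occurred in both genotypes. Library identifiers come with a letter (2 untreated wild type, 1 wild type with hydroquinone, 2 of each knockout group) or without one, and values within each form are given beside the main results. The tissue is bulk RNA, so fewer cells of a type and less RNA per cell cannot be told apart.

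Across all libraries, Slc3a2 had the highest level per length, and Glrx had the lowest per kilobase of merged exons. Per kilobase of merged exons, Slc3a2 averaged 70.3 ± 8.91 CPM per kb, Gclc 25.0 ± 7.02, Gsr 23.0 ± 3.61, Gclm 17.6 ± 3.45, Glo1 8.38 ± 1.06, Gss 7.20 ± 1.30, Slc7a11 3.22 ± 1.07 and Glrx 1.62 ± 0.374 (SD, n = 16 libraries). The heavy chain Slc3a2, which serves several carriers, stood far above its partner Slc7a11. Neighbours in this order whose ranges of mean ± SD meet are Gclc, Gsr and Gclm, and Glo1 and Gss. The place of Gss rests on the length used: per kilobase of its longest coding transcript it averaged 21.7 CPM per kb, close to Gclm at 19.8 and Gsr at 23.7. So does the lowest place: by that length Slc7a11 averaged 4.86 CPM per kb, below Glrx at 6.61.

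**Figure D1:**
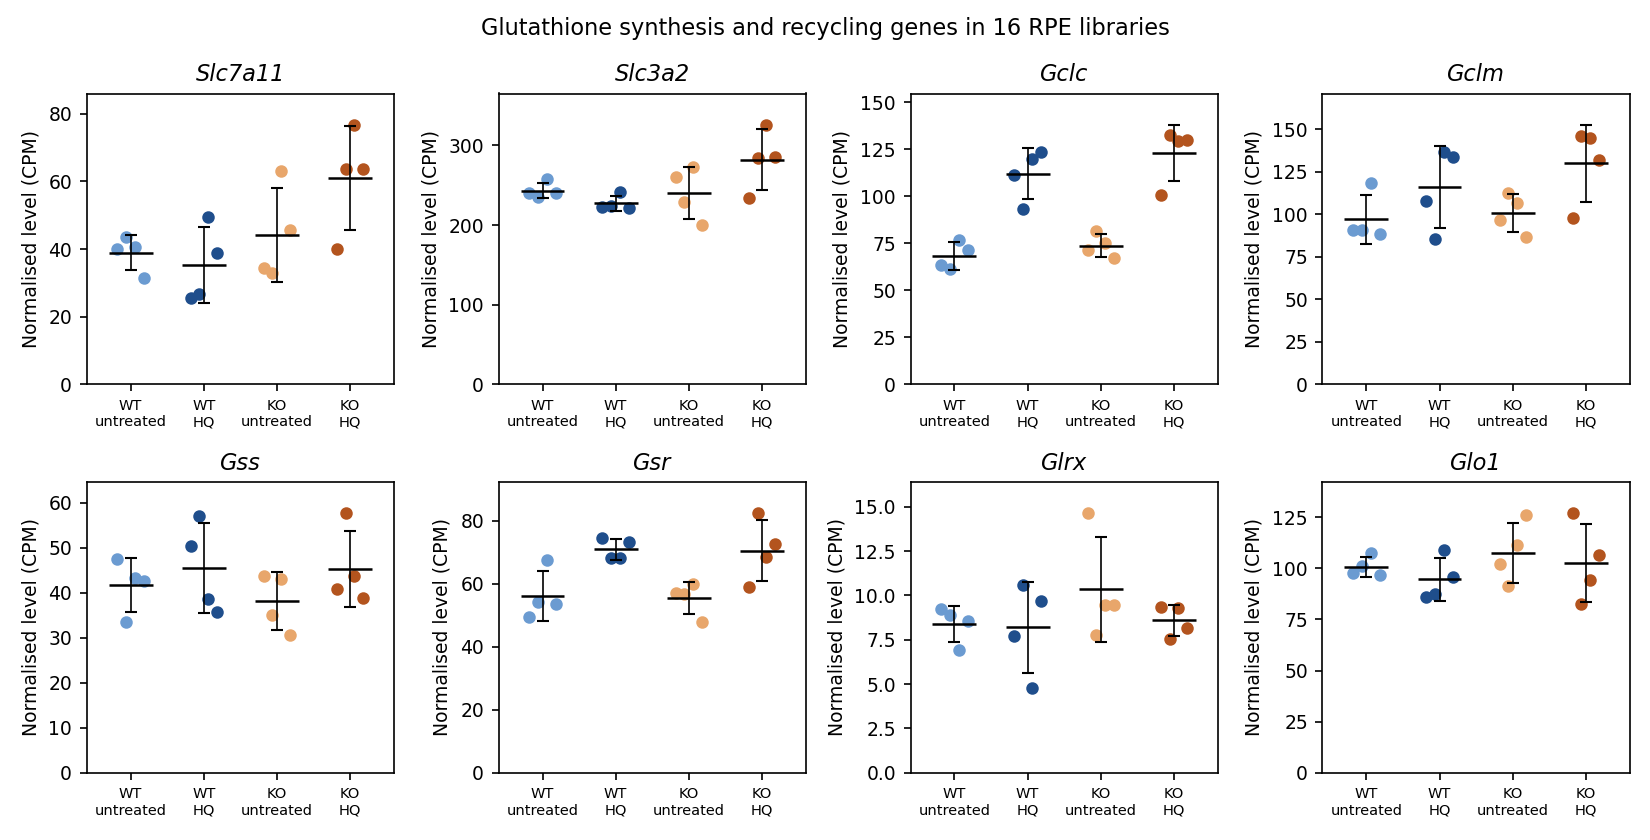
Normalised level in counts scaled to a library of 1e6 (CPM, linear axis from 0) of the 8 genes in each of the 16 libraries, by group; points are libraries, horizontal lines are group means and bars are SD (n = 4). Gclc is the gene whose 8 hydroquinone libraries (lowest 93.5 CPM) all lie above its 8 untreated libraries (highest 81.5 CPM).

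The catalytic ligase subunit Gclc was higher after hydroquinone in both genotypes, by 1.66-fold when averaged over genotype, and it was the member with the largest change. In untreated wild type the libraries had 63.4, 61.2, 77.0 and 71.3 CPM, and in wild type with hydroquinone 111.3, 93.5, 119.9 and 123.5 CPM. In untreated knockout they had 71.2, 81.5, 75.0 and 67.1 CPM, and in knockout with hydroquinone 100.8, 132.6, 129.2 and 129.9 CPM. All 8 hydroquinone libraries lay above all 8 untreated ones, which was true of 0.0715% of the tested genes. Group means were 68.2 ± 7.28 and 112.1 ± 13.4 CPM in wild type without and with hydroquinone, and 73.7 ± 6.10 and 123.1 ± 15.0 CPM in knockout (SD, n = 4 libraries each).

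Averaged over genotype, Gclc rose by 0.73 ± 0.083 on the log2 scale (SE; adjusted p = 0.000801, edgeR quasi-likelihood test with Benjamini-Hochberg adjustment over all tested genes, as for every adjusted p here unless another test is named). The eyes of 1 mouse entered this fit as separate libraries. Gclc was the member called in this comparison, where 13 genes (0.0845%) passed in either direction and 11 (0.0715%) passed as higher. With the eyes of a mouse summed, so that each mouse counted once, the change was 0.73 and the adjusted p 0.0401. Within identifier forms it was 0.59 in the 9 libraries without a letter (adjusted p = 0.999) and 0.88 in the 7 with one (adjusted p = 0.116). Rod markers differed widely between libraries, and without the 4 libraries where they were highest the change was 0.73 (adjusted p = 0.0177).

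In the single genotypes the sizes were alike, and the calls were less stable. The Gclc change was 0.74 ± 0.118 in knockout (adjusted p = 0.0339), a call that was lost with the eyes summed (adjusted p = 0.334). It was also lost in 12 of 16 fits that left out 1 library (adjusted p up to 0.372), and kept without untreated wild-type replicate 3, wild-type hydroquinone replicate 2 or 3, or knockout hydroquinone replicate 1. In wild type it was 0.72 ± 0.118 and did not pass (adjusted p = 0.114). It did pass there with DESeq2 (adjusted p = 2.747e-05), with the rod markers as a covariate (adjusted p = 0.0282) and without knockout hydroquinone replicate 1 (adjusted p = 0.0457). Mueller glia markers moved with the wild-type comparison: their score, the mean log2(CPM + 1), was 8.03, 7.45, 6.40 and 8.02 in untreated wild type and 6.78, 5.49, 6.53 and 6.18 with hydroquinone. Oligodendrocyte markers summed to 10242, 2705, 158.4 and 5317 CPM in untreated wild type and to 1936, 201.1, 146.5 and 198.3 CPM with hydroquinone. Those groups overlapped through untreated replicate 3. The part of Mueller glia and oligodendrocyte tissue in the wild-type changes of Gclc and the other members was not tested. The difference between the genotypes' responses was 0.02 ± 0.166 (interaction, adjusted p = 1.00 with edgeR), which is smaller than its error.

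Gclm, the modifier subunit that raises the ligase's affinity for glutamate, moved less and did not pass the test. Its libraries had 90.9, 90.4, 118.6 and 88.1 CPM in untreated wild type, and 107.8, 85.2, 136.5 and 133.5 CPM in wild type with hydroquinone. They had 96.3, 112.5, 106.5 and 86.9 CPM in untreated knockout, and 97.5, 146.1, 144.7 and 131.7 CPM in knockout with hydroquinone. The treated and untreated libraries overlapped in both genotypes, with wild-type hydroquinone replicate 2 and knockout hydroquinone replicate 1 at untreated levels. These libraries had the lowest RPE marker sums of their groups, at 24162 and 23633 CPM. The highest sums of those groups were 33669 and 38007 CPM. The part of RPE content in the Gclm values was not tested. The log2 change averaged over genotype was 0.31 ± 0.117 (313th of 15380 genes by p, adjusted p = 0.823), with 0.25 in wild type and 0.37 in knockout. By identifier form it was 0.12 without a letter and 0.55 with one.

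The ratio of the 2 ligase subunits is given as a description with no test, since it was chosen after Gclc had been seen to change more than Gclm in the same libraries. Within a library, the Gclc to Gclm ratio of CPM was 0.698, 0.677, 0.649 and 0.810 in untreated wild type and 0.739, 0.725, 0.704 and 0.773 in untreated knockout. It was 1.03, 1.097, 0.879 and 0.925 in wild type with hydroquinone and 1.03, 0.907, 0.893 and 0.987 in knockout with hydroquinone. Every hydroquinone library had a ratio above every untreated library. Over mice, the log2 ratio was -0.05 ± 0.118 with hydroquinone (SD, n = 8) and -0.46 ± 0.0604 without (SD, n = 5), a difference of 0.41, or 1.33-fold. The difference was 0.49 within libraries without a letter and 0.34 within those with one. Between genotypes the log2 ratio differed by -0.04 for knockout minus wild type, which is smaller than the spread between mice (SD 0.211 in knockout and 0.270 in wild type). The ratio is of counts not scaled to gene length, so its size is read between libraries only.

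**Figure D2:**
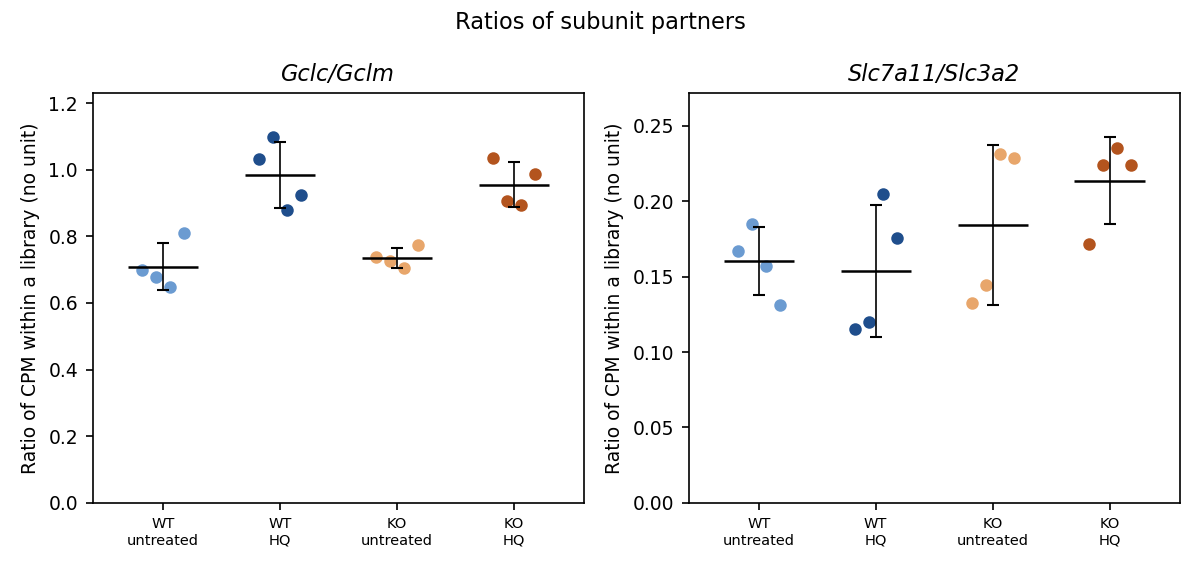
Ratio of CPM within each library (no unit, linear axis from 0) for Gclc to Gclm and for Slc7a11 to Slc3a2, by group; points are libraries, lines are means and bars are SD (n = 4). The Gclc to Gclm ratio is 0.649 to 0.810 in untreated libraries and 0.879 to 1.097 in hydroquinone libraries, while the Slc7a11 to Slc3a2 ratio overlaps between treatments.

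Gss, which completes the tripeptide, showed no change that passed the test. It ranged over 33.4 to 47.5 CPM in untreated wild type, 35.6 to 56.9 in wild type with hydroquinone, 30.6 to 43.7 in untreated knockout and 38.8 to 57.6 in knockout with hydroquinone. The groups overlapped throughout. The log2 change averaged over genotype was 0.19 ± 0.125 (adjusted p = 0.914), with 0.12 in wild type and 0.25 in knockout, and the value in wild type turned negative (-0.01) without wild-type hydroquinone replicate 2.

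Gsr, the reductase that recycles oxidised glutathione, had the second smallest p of the members and a change of the same size in both genotypes. Untreated wild-type libraries had 49.4, 54.1, 67.4 and 53.6 CPM, and those with hydroquinone 74.5, 68.0, 68.1 and 73.1 CPM. Untreated knockout libraries had 57.2, 56.8, 59.8 and 47.9 CPM, and those with hydroquinone 58.8, 82.4, 68.4 and 72.5 CPM. In wild type every hydroquinone library lay above every untreated one, as for 1.13% of tested genes. The knockout groups overlapped through hydroquinone replicate 1. In knockout Gclc was the member whose hydroquinone libraries all lay above the untreated ones, as for 1.18% of tested genes. Gsr changed by a log2 value of 0.34 ± 0.083 averaged over genotype (34th of 15380 genes by p), 0.34 in wild type and 0.35 in knockout. The adjusted p of the averaged change was 0.411, so it did not pass with edgeR, while DESeq2 gave an adjusted p of 0.0473.

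Glrx, a small thiol transferase, was the least abundant member at 4.80 to 14.6 CPM over the 16 libraries. Its log2 change averaged over genotype was -0.15 ± 0.169 (adjusted p = 0.933), with -0.04 in wild type and -0.26 in knockout. Untreated knockout replicate 1 was the highest library at 14.6 CPM, and the remaining libraries of that group had 7.75 to 9.49 CPM. The wild-type value changed sign when wild-type hydroquinone replicate 3 (0.15) or untreated wild-type replicate 1 (0.01) was left out, so no direction was given for it.

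Glo1, which turns the glutathione adduct of methylglyoxal into a thioester, showed no change that passed the test. It ranged over 96.5 to 107.4 CPM in untreated wild type, 85.9 to 109.1 in wild type with hydroquinone, 91.3 to 126.0 in untreated knockout and 82.6 to 127.0 in knockout with hydroquinone. The log2 changes were -0.08 ± 0.093 averaged over genotype, -0.09 in wild type and -0.07 in knockout (adjusted p = 0.939, 0.994 and 1.00). The knockout value turned positive without untreated knockout replicate 4 (0.0037) or knockout hydroquinone replicate 2 (0.02).

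Slc7a11, the cystine carrier, had the largest interaction term of the 8 members, though no test of it passed. Slc7a11 had 40.1, 43.6, 40.5 and 31.4 CPM in untreated wild type and 25.6, 26.7, 49.4 and 39.0 CPM in wild type with hydroquinone. It had 34.5, 33.0, 63.2 and 45.7 CPM in untreated knockout and 40.0, 63.7, 76.8 and 63.8 CPM in knockout with hydroquinone. In the knockout hydroquinone group 3 libraries stood above every wild-type library, and replicate 1 stood within the wild-type range. Group means were 38.9 ± 5.23 and 35.2 ± 11.2 CPM in wild type without and with hydroquinone, and 44.1 ± 13.9 and 61.1 ± 15.3 CPM in knockout (SD, n = 4). The log2 change with hydroquinone was -0.15 ± 0.253 in wild type, 0.47 ± 0.253 in knockout and 0.16 ± 0.178 averaged (adjusted p = 0.994, 1.00 and 0.933).

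Slc3a2, its heavy chain, likewise had its highest mean in knockout with hydroquinone (282.2 ± 37.9 CPM, against 227.1 ± 9.23 to 243.2 ± 9.65 in the other groups; SD, n = 4). Its libraries had 239.8, 235.7, 257.4 and 239.9 CPM in untreated wild type, and 222.4, 223.3, 240.9 and 221.8 CPM in wild type with hydroquinone. They had 260.4, 228.8, 273.0 and 199.7 CPM in untreated knockout, and 233.6, 284.0, 326.1 and 285.1 CPM in knockout with hydroquinone. The log2 change was -0.10 ± 0.113 in wild type, 0.23 ± 0.113 in knockout and 0.07 ± 0.080 averaged (adjusted p = 0.994, 1.00 and 0.940). As with Slc7a11, knockout hydroquinone replicate 1 was the lowest library of its group.

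**Figure D3:**
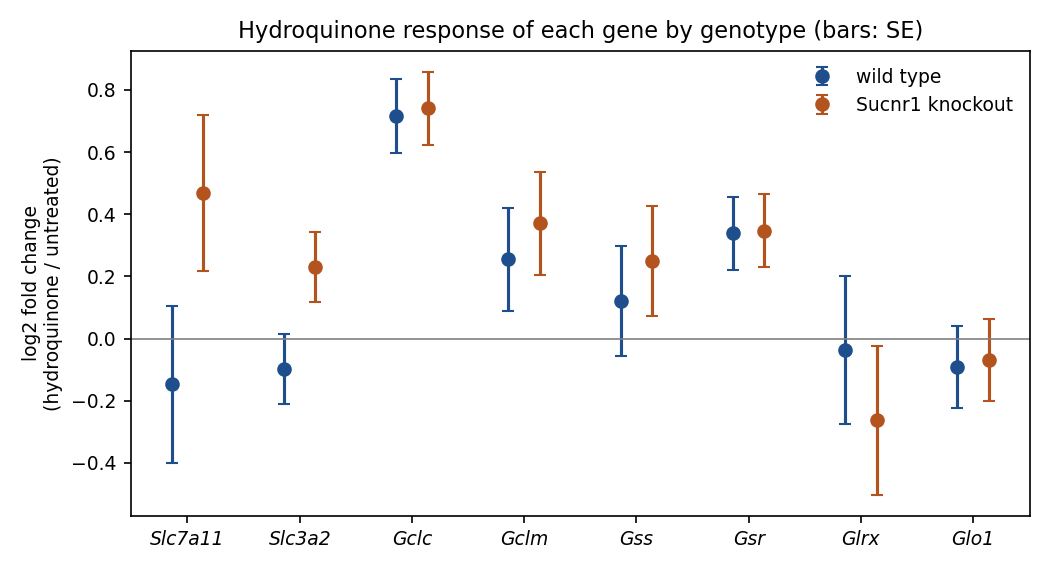
Log2 fold change of hydroquinone over untreated for each of the 8 genes in wild type and in Sucnr1 knockout; points are edgeR estimates, bars are SE and the grey line marks no change. Gclc sits at 0.72 and 0.74 in the 2 genotypes, while Slc7a11 sits at -0.15 in wild type and 0.47 in knockout with wide errors.

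Over all 8 members, 6 had a log2 change above 0 with hydroquinone averaged over genotype, against 51.2% of tested genes. Their median was 0.17, against 0.005 over all tested genes. Of the 8, 3 (Gclc, Gsr and Gclm) had an unadjusted p under 0.05, against 5.72% of tested genes. In wild type 4 members were above 0 (50% of tested genes), 2 had an unadjusted p under 0.05 (4.28%) and 0 passed (0.0065%), with a median of 0.04. In knockout 6 were above 0 (49.6%), 3 had an unadjusted p under 0.05 (2.96%) and 1 passed as higher (0.0455% of tested genes in either direction, 0.0325% as higher), with a median of 0.30. The 2 genotypes' comparisons share no library, and the averaged one uses both. The members and the pathway lists below were chosen with earlier results of these data known. Their shares beside those of all tested genes are therefore descriptions and not tests.

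Between genotypes no member passed with edgeR or DESeq2 in any comparison, and no gene of the tested ones did with edgeR (0%). Under hydroquinone, Slc7a11 was 0.80 ± 0.254 higher on the log2 scale in knockout than in wild type (1.74-fold, 54th by p, adjusted p = 1.00), and Slc3a2 was 0.31 ± 0.113 higher (1.24-fold, 155th by p, adjusted p = 1.00). Those were the 2 of 8 members with an unadjusted p under 0.05, against 4.18% of tested genes. The groups overlapped for every member, while 2.33% of tested genes had none. The members above 0 numbered 6, against 53.1% of tested genes. In untreated libraries 5 members were above 0 (53.2% of tested genes), 0 had an unadjusted p under 0.05 (1.32%) and none was free of overlap (1.05%). Averaged over treatment 6 were above 0 (55.7%) and 1, Slc7a11, had an unadjusted p under 0.05 (2.96%).

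The difference between the genotypes' hydroquinone responses was 0.62 ± 0.357 for Slc7a11 (interaction, 797th by p) and 0.33 ± 0.160 for Slc3a2 (352nd by p), with an adjusted p of 1.00 for both. Over the 8 members 7 interaction terms were above 0 (50% of tested genes) and 0 had an unadjusted p under 0.05 (1.92%). Rod markers moved with this comparison: they summed to 22143 CPM in knockout hydroquinone replicate 1 and to 256.2 to 370.2 CPM in the other 3 libraries of that group, against 530.9 to 4528 CPM in wild type with hydroquinone. With the rod markers as a covariate, the knockout difference under hydroquinone was 0.74 for Slc7a11 and 0.24 for Slc3a2. Without the 4 libraries highest in rod markers it was 0.94 and 0.37 (adjusted p = 0.422 for both). Mueller glia markers moved with it too: they summed to 4178, 3868, 4276 and 3893 CPM in knockout with hydroquinone and to 3082, 2851, 3569 and 3019 CPM in wild type with hydroquinone, with no overlap in the sum. Their score did overlap, at 6.34 to 8.09 in knockout and 5.49 to 6.78 in wild type with hydroquinone. Corneal and surface epithelium markers summed to 20923, 25757, 2904 and 6515 CPM in wild type with hydroquinone. In knockout with hydroquinone they summed to 7771, 9934, 3367 and 2697 CPM. Wild-type hydroquinone replicates 1 and 2, highest in these markers, had the lowest Slc7a11 levels of all libraries (25.6 and 26.7 CPM). The part of Mueller glia and corneal tissue in the Slc7a11 and Slc3a2 differences was not tested. By identifier form, the knockout difference under hydroquinone was 0.62 for Slc7a11 without a letter and 0.85 with one, and 0.18 and 0.46 for Slc3a2. The interaction was 0.88 for Slc7a11 without a letter and 0.31 with one, and 0.21 and 0.47 for Slc3a2.

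Within a library, the Slc7a11 to Slc3a2 ratio ranged over 0.131 to 0.185 in untreated wild type, 0.115 to 0.205 in wild type with hydroquinone, 0.133 to 0.232 in untreated knockout and 0.171 to 0.236 in knockout with hydroquinone. This ratio, too, was chosen after the values had been seen and is given as a description without a test. Over mice, the log2 ratio was -2.34 ± 0.275 in knockout (SD, n = 7) and -2.71 ± 0.335 in wild type (SD, n = 6), a difference of 0.37. With hydroquinone it was 0.06 higher than without. No group was clear of another in it.

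The wider pathway was described through 9 gene lists with 97 genes beside the members, of which 95 were tested. With hydroquinone averaged over genotype 55 of these 95 were above 0, against 51.2% of all tested genes, with a median of 0.04 against 0.005. Of the 95, 2 rose and 0 fell, where 0.0715% of all tested genes passed as higher and 0.0845% in either direction. Gstm1, a glutathione S-transferase that joins glutathione to electrophiles, rose by 0.83 ± 0.089 (adjusted p = 0.000703), from 93.7 ± 10.7 to 141.0 ± 12.5 CPM in wild type and from 86.9 ± 15.7 to 181.9 ± 8.78 CPM in knockout (SD, n = 4). Txnrd1, the cytosolic thioredoxin reductase, rose by 0.63 ± 0.105 (adjusted p = 0.0331), from 172.7 ± 11.1 to 238.1 ± 23.4 CPM in wild type and from 160.9 ± 21.3 to 277.8 ± 60.0 CPM in knockout. The Gstm1 call held in 28 of 30 alternatives and the Txnrd1 call in 11 of 30, and with the eyes summed Txnrd1 had an adjusted p of 0.426. Leaving out 1 library kept the Txnrd1 call only without wild-type hydroquinone replicate 2 or knockout hydroquinone replicate 1, and gave an adjusted p of up to 0.111 otherwise. In knockout alone Gstm1 was the gene of these lists that rose (1.07, adjusted p = 0.00242), and in wild type none passed with edgeR (DESeq2 called 1).

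By step, none of the 8 cystine and cysteine supply genes beside the members passed, and the smallest p belonged to Mat2a, which makes the methyl donor upstream of cysteine synthesis (0.10), and Cbs, which opens transsulfuration (-0.20). Of 7 other light chain genes of the Slc7 family, 5 were tested and none passed. Slc7a6 had the smallest p for the averaged change among them, at -0.10 averaged, -0.47 in wild type and 0.27 in knockout. Of these 5 genes, 5 had an interaction term above 0, with no adjusted p under 0.05. That compares with 50% of tested genes and 59 of the 95 pathway genes. Slc7a9 and Slc7a13 were too low to test. Of 13 genes of glutathione breakdown none passed, with Ggct, a gamma-glutamyl cyclotransferase, at -0.33 and Ggt5, a gamma-glutamyl transferase, at 0.68. Of 7 transport genes none passed, with the conjugate exporters Abcc3 at 0.46 and Abcc2 at 0.62.

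Among the 9 glutaredoxin and thioredoxin genes (Glrx included) 1 rose, which was Txnrd1, and the median was -0.04. None of the 8 glyoxalase genes passed, with Akr1a1, an aldehyde reductase, at 0.12 and Haghl at -0.09. Of 25 glutathione users, which are the peroxidases and transferases, 16 were above 0 and 1 rose. Of 9 genes of NRF2 and its partners 6 were above 0 and none passed. Sqstm1, the autophagy receptor that binds KEAP1, had the smallest p of that list, at 0.35 (adjusted p = 0.298), and Bach1, a repressor at antioxidant response elements, was at 0.45 (adjusted p = 0.520). Of 14 genes of the ATF4 amino acid response 7 were above 0 and none passed, with Atf3 at 0.51 and Trib3 at 0.47.

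**Figure D4:**
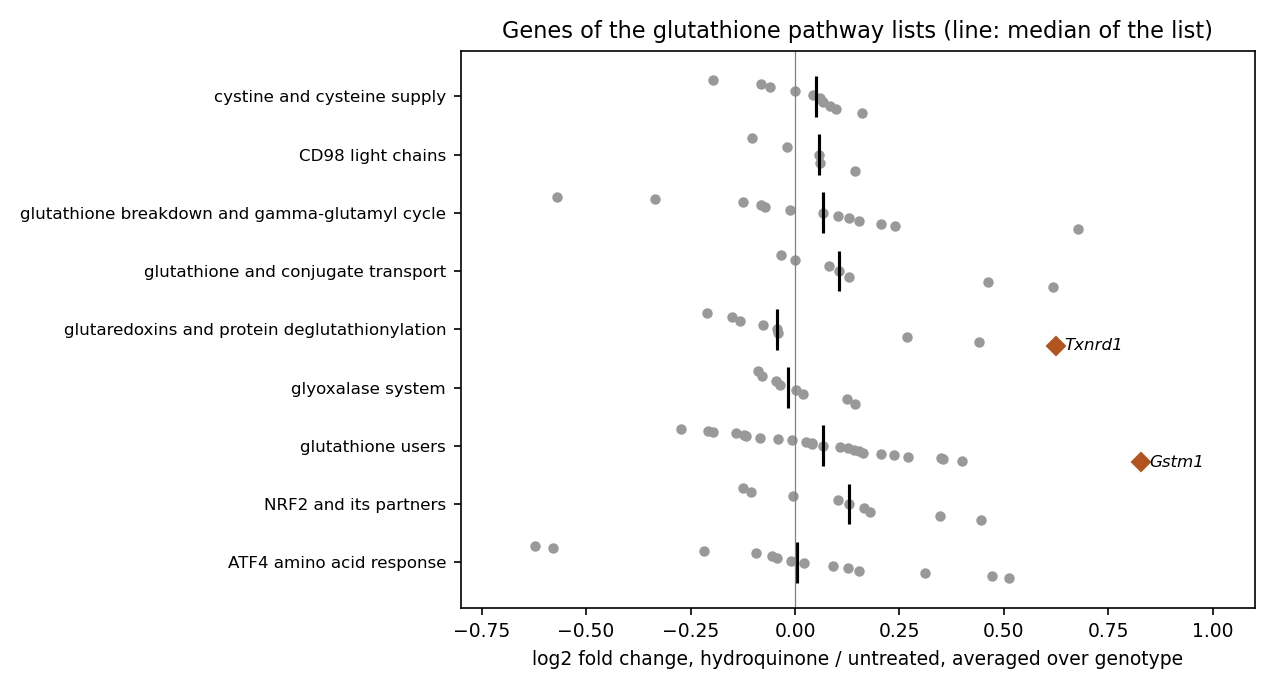
Log2 fold change of hydroquinone over untreated, averaged over genotype, for the tested genes of 9 glutathione pathway lists (members included where a list holds them); each point is a gene, black lines are list medians and diamonds mark genes with an adjusted p under 0.05. The 2 diamonds are Txnrd1 at 0.63 and Gstm1 at 0.83.

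Likeness of pattern was measured as the mean absolute difference of log2(CPM + 1), each gene centred on its own mean, over the 16 libraries, so it is a description with no test. The genes most like Gclc were Mocs1, a molybdenum cofactor enzyme, at 0.110, Nqo1, a quinone reductase, at 0.126 and Txnrd1 at 0.138, where the median of 15377 other tested genes was 0.404. Their log2 changes with hydroquinone averaged over genotype were 0.61, 0.67 and 0.63, which their choice by likeness to Gclc over the same libraries largely fixed. Of the other members, Gsr was the 19th closest to Gclc (0.199) and Gclm the 28th (0.210), while Gss, Slc3a2, Slc7a11, Glo1 and Glrx stood at 0.325 to 0.464. The genes most like Slc7a11 were Nwd1 (0.199), Slc22a17 (0.199) and Slc6a17 (0.201), against a median of 0.413, and its partner Slc3a2 was the 455th (0.289).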

How the data were processed

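RPE transcripts were measured in 16 libraries, 1 per eye. The deposited table holds read counts per Ensembl gene: its name announces FPKM, but 100% of the values were whole numbers and library totals differed, so they were used as counts. The submitters' processing notes name STAR, Cufflinks, DESeq2 and mm10, with no roles or versions, and strand handling is not given in the sources used here. Symbols and coordinates came from GENCODE vM21 (GRCm38), which matched 51719 of 51912 identifiers, and promoter sequences from RefSeq.

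Counts were scaled by TMM and are shown as CPM (mean ± SD). edgeR 4.0.16 in R 4.3.3 (quasi-likelihood F test, group means of all 4 groups in 1 model) was run on the 15380 genes that averaged 1 CPM or more, which held 99.8% of counts. P-values were adjusted by Benjamini-Hochberg over these genes with a threshold of 0.05, and the SE was derived from the F statistic. The procedure was tested on simulated data. Depth was 21113549 to 35332444 counts per library, so a floor of 3 counts was at most 0.143 CPM. Because the eyes of 3 of the 13 mice by title entered as separate libraries, p-values partly measure the spread between eyes. The consensus correlation of the eyes of a mouse was -0.02 (limma 3.58.1), and summed eyes and the mouse as a block were run as alternatives, as were DESeq2 1.42.0, other scalings and filters, limma on log2(CPM + 1), covariates and leaving out libraries.

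The members and all lists were chosen with earlier results of these data known. Genes named beside the members were those of the pathway lists with an adjusted p under 0.05 for hydroquinone averaged over genotype or in either genotype. Where a list had none, its 2 genes with the smallest p for the averaged change were named. The 3 genes most like Gclc and most like Slc7a11 were named as well. The subunit ratios, the fits without the 4 libraries with a rod marker score (mean log2(CPM + 1)) above 8, and the alternatives for the pathway lists were chosen after seeing the data.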

Additional observations from a re-analysis of the deposited data

Results flagged for a closer look

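In 3 of 32 sets (8 genes in 4 groups) 1 library stood apart from the other 3 of its group by more than Dixon's 95% limit for 4 samples. Chance flags about 1 in 20 such sets, or 1.6 of 32. Slc3a2 in wild-type hydroquinone replicate 3 had 240.9 CPM against 221.8 to 223.3 CPM in the other libraries (Dixon ratio 0.920). Gclc in knockout hydroquinone replicate 1 had 100.8 CPM against 129.2 to 132.6 CPM (Dixon ratio 0.905), and this library had the highest rod marker level of its group. Its RPE marker sum was the lowest of the group (23633 CPM) and its oligodendrocyte marker sum the highest (6001 CPM). The part of tissue content in that Gclc value was not tested. Gclm in untreated wild-type replicate 3 had 118.6 CPM against 88.1 to 90.9 CPM (Dixon ratio 0.894).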

How the results depend on the processing

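The member count for hydroquinone averaged over genotype was 1 in the main fit and in every fit without 1 library (1 to 1), 2 with DESeq2, and 0 within each identifier form, where fewer libraries were fitted. In wild type it was 0, but 1 with DESeq2, with the rod score as covariate and without knockout hydroquinone replicate 1 (0 to 1 when leaving out libraries). In knockout it was 1, and it became 0 with upper-quartile scaling, without a filter on low counts, with edgeR's filterByExpr, with the eyes summed, with the 2 groups compared fitted alone, with the identifier form as covariate, within each form, and without the 4 libraries highest in rod markers (0 to 1 when leaving out libraries). The cause was not tested. Counts between genotypes and for the interaction were 0 in every alternative run. Pathway genes that rose averaged over genotype numbered 2, but 3 with DESeq2, 1 with no low-count filter, with summed eyes and with the identifier covariate, 0 within each form, and 1 to 3 when leaving out libraries. In wild type they numbered 0, but 1 with DESeq2 (0 to 0 when leaving out libraries). In knockout they numbered 1, but 3 with DESeq2, 2 with the rod covariate, 0 with the 2 groups alone and within each form, and 1 to 3 when leaving out libraries. Over all tested genes, the averaged hydroquinone comparison called 13 with edgeR and 37 with DESeq2, and the wild-type one called 1 and 20.

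Signs changed only for changes that had not passed. Without a letter in the identifier, log2 changes were -0.0459 for Slc3a2 averaged, 0.0922 for Glo1 in knockout and -0.0076 for the Gclc interaction. With a letter they were 0.0177 for Glrx averaged, 0.054 for Slc7a11, -0.0939 for Gss and 0.15 for Glrx in wild type, -0.0324 for the Gclc interaction, and 0.0616 for the Gclc to Gclm ratio between genotypes. The Gclc interaction was also -1e-04 with DESeq2, -0.019 with the rod covariate and -0.0536 to 0.1089 when leaving out libraries. Glrx in wild type was 0.0354 without the libraries highest in rod markers and -0.1869 to 0.1492 when leaving out libraries. Gss in wild type was -0.0061 to 0.2218, Glo1 in knockout -0.1875 to 0.0227, the Gclc to Gclm ratio between genotypes -0.0844 to 0.0255 and the Slc7a11 to Slc3a2 ratio with hydroquinone -0.0234 to 0.1624 when leaving out libraries. The Gclc change averaged over genotype passed in 28 of 30 alternatives. No paired analysis was possible because replicate numbers only follow accession order and mice received 1 treatment each.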
